A study of Homo sapiens with 3 samples.

Results

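The expression of 40 genes of the integrated stress response and the unfolded protein response was compared between HCT-116 cells that received pooled siRNA against *APC* and HCT-116 cells that received none. HCT-116 is a colon carcinoma line, and in all 3 groups of the study it carries wild-type *APC* and a β-catenin mutant (CTNNB1ΔSer45) that resists degradation. Cells were transfected 2 times on consecutive days with anti-*APC* siRNA, with scrambled siRNA or without siRNA, and were harvested 48 hours after the second transfection. There was 1 library for each condition. The sample title calls the control untransfected and its treatment label calls it a mock with reagent only. The library from cells with scrambled siRNA is not used here, and the control below is the untransfected library. An effect of *APC* silencing and an effect of siRNA delivery cannot be told apart. The members were chosen by symbol from a table of 23131 genes, as genes known for their place in these pathways. They fall into 9 genes of ATF4 and stress regulation and 12 genes of an amino acid arm (enzymes and transporters). Another 4 genes are for sensors of stress in the endoplasmic reticulum (ER) and for XBP1, which acts below one of them. The last 15 form an ER chaperone arm. The group of 9 is called ATF4 and its regulators below as a label only. It also holds genes that ATF4 drives, such as *CHAC1*, and the lipoprotein receptor gene *VLDLR*, so its median is not one of regulators alone.

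In the integrated stress response, kinases phosphorylate the translation factor eIF2α, which lowers general protein synthesis while the mRNA of the transcription factor ATF4 is translated more. ATF4 then drives genes for amino acid synthesis, amino acid uptake and stress signalling. In the unfolded protein response, misfolded protein in the ER activates the sensors PERK, IRE1 and ATF6, and XBP1 and ATF6 then drive chaperones and the machinery that removes misfolded protein. The intestinal epithelium holds many secretory cells and relies on this response. Messenger RNA levels do not show eIF2α phosphorylation, ATF4 translation, ATF6 cleavage or XBP1 splicing.

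The members differ in the elements of their promoters, and these are shown because they mark the ER chaperone arm. Promoter windows of 300 bases (250 before the transcription start and 50 after it) were taken from RefSeq on GRCh38.p14 for 36 of the 40 members and placed on GRCh37 by exact match. *SHMT2*, *PSPH*, *SLC7A11* and *PDIA3* had none. The ER stress element was searched on both strands as CCAAT, any 9 bases and CCACG, and the ER stress element II as ATTGG, any base and CCACG. The first contains the CCAAT box and the second its reverse complement. Of the 14 ER chaperone genes with a window, 6 had the first element, 3 had the second and 9 had one or the other (64.3%). Over all 27305 genes with a window the shares were 0.0916% for the first, 0.0696% for the second and 0.161% for either. Among the sensors and *XBP1*, only *XBP1* had either element, and in both ATF4 groups 0 of 9 genes with a window had either element. These genes are textbook targets of the response, so the shares are a description and not an independent result.

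The promoter of *HSPA5* is shown from chr9:128003662-128003822 on GRCh37 (minus strand, 161 bases), 5′ to 3′, with each CCAAT box and the CCACG end of the ER stress element in capitals. The whole window holds 5 CCAAT boxes over both strands, of which the stretch shown holds 3. Of these 3, the one nearest the start is followed after 9 bases by CCACG, and the middle one by CCAAC.
HSPA5: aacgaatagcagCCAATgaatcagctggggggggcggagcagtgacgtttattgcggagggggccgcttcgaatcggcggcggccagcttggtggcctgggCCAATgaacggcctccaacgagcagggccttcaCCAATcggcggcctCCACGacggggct

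The other exact matches to the first element lay in *HSP90B1*, *CALR*, *CANX*, *PDIA6*, *CRELD2* and *XBP1*. Each is given on its own strand with 5 flanking bases, with the fixed letters in capitals and GRCh37 coordinates. *HSP90B1* had a pair of them on opposite strands.
HSP90B1 (chr12:104323989-104324017, plus strand): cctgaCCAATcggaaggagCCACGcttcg
HSP90B1 (chr12:104324094-104324122, minus strand): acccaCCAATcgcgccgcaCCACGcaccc
CALR (chr19:13049193-13049221, minus strand): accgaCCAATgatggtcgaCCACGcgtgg
CANX (chr5:179125774-179125802, plus strand): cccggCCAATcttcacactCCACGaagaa
PDIA6 (chr2:10952974-10953002, minus strand): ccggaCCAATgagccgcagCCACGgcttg
CRELD2 (chr22:50312197-50312225, minus strand): atggcCCAATccgagttcgCCACGagagg
XBP1 (chr22:29196586-29196614, minus strand): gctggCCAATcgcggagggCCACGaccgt

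The element II was found in *HYOU1* at a pair of places, and in *HERPUD1* and *SDF2L1* at 1 place each.
HYOU1 (chr11:118928086-118928106, plus strand): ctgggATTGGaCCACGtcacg
HYOU1 (chr11:118927980-118928000, plus strand): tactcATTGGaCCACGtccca
HERPUD1 (chr16:56965932-56965952, plus strand): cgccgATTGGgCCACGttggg
SDF2L1 (chr22:21996398-21996418, minus strand): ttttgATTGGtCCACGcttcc

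The composite element bound by C/EBP and ATF factors was searched as its core TGATGNAA, which overlaps none of the other motifs. It was found in 4 of 9 genes of the amino acid arm (*ASNS*, *SLC1A5*, *SLC3A2*, *SLC7A1*), in 1 of 9 genes of ATF4 and its regulators (*CHAC1*) and in 1 of 14 ER chaperone genes (*HERPUD1*), against 4.46% of all genes. In *SLC3A2* and *SLC7A1* it lay after the start. The RefSeq start lies inside the gene as GENCODE 44 annotates it, 3780 bases after its first base in *SLC1A5* and 25695 bases after it in *SLC3A2*. The same holds for the element of *PDIA6* (25192 bases) and *CANX* (20159 to 20339 bases), whereas the other windows with an element start at most 509 bases after it. The palindromic cyclic AMP response element TGACGTCA was found in *PPP1R15A* alone among the members, against 2.25% of all genes. Matches are letters in these windows and were not measured as bound sites.
ASNS (chr7:97501776-97501793, minus strand): aggcaTGATGaAActtcc
SLC1A5 (chr19:47288156-47288173, minus strand): gtggcTGATGcAAgctgt
CHAC1 (chr15:41245455-41245472, minus strand): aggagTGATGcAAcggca
HERPUD1 (chr16:56965873-56965890, minus strand): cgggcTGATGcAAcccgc

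**Figure D1:**
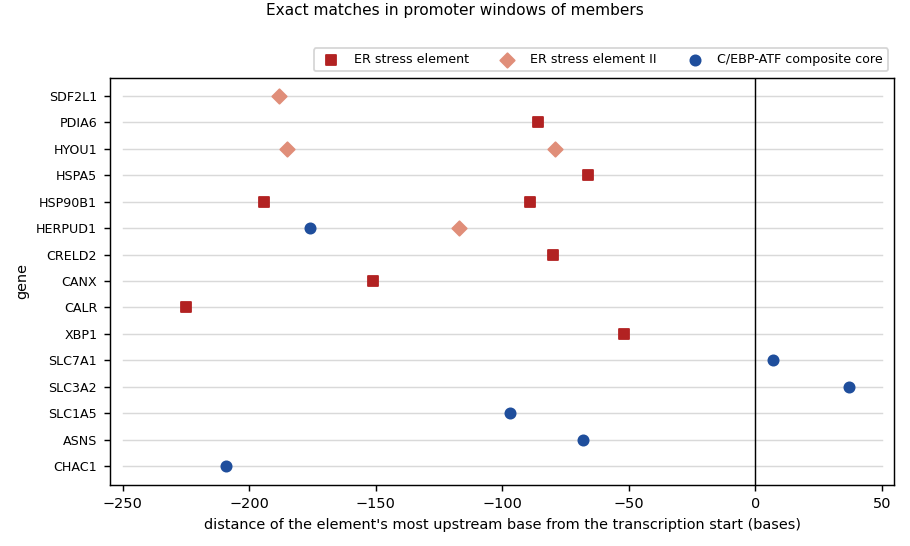
Exact matches to the ER stress element (squares), the ER stress element II (diamonds) and the C/EBP-ATF composite core (circles) in the promoter windows of the 15 members that had any, against distance in bases from the transcription start. The ER stress elements sit with the ER chaperone genes and *XBP1*, whereas 5 of the 6 circles belong to genes of both ATF4 groups. *CANX* is drawn for 1 of its windows.

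Levels are given as FPKM, fragments scaled to the length of the transcript in kilobases and to the mapped reads of the library, which the authors obtained with Cufflinks and Cuffdiff. Differences are log2 ratios of FPKM with anti-*APC* siRNA over FPKM without, with no pseudocount. With 1 library per condition there is no replicate error and no test. In bulk RNA, fewer cells with a transcript and less of it per cell cannot be told apart. Genes listed at 0 in 1 library alone gave depth estimates of about 23600000 reads for the anti-*APC* library and 26500000 reads for the untransfected library. The intervals given here are 95% intervals from the read numbers that these depths imply, and they cover counting error only. As a second measure of size, each member was placed among genes within 2-fold of its mean level. *APC* had 3.43 FPKM with its siRNA and 9.15 FPKM without, and the WNT target *AXIN2* had 28.7 and 4.11 FPKM, whereas *CTNNB1*, which encodes β-catenin, had 178 and 177 FPKM. Of 7 epithelial markers, 6 had at least 12.1 FPKM in both libraries, and *VIL1* was at or near 0. All 6 were lower with anti-*APC* siRNA, from 0.636 (*CDH1*) to 0.898 (*EPCAM*) of the untransfected level. Of 8 markers of other cell types, 6 were at or near 0 in both libraries, *COL1A1* had 3.08 and 2.85 FPKM and *VIM* had 2.18 and 1.35 FPKM. The part of these markers in the results below was not tested.

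Of the 40 members, 37 had a mean of at least 1 FPKM and are counted below. *SLC1A5* and *SESN2* were at least 1.5-fold higher with anti-*APC* siRNA and *DDIT4* was at least 1.5-fold lower. Among all 12063 genes with that mean and a value above 0 in both libraries, 2.56% were at least 1.5-fold higher and 6.61% at least 1.5-fold lower, so 2 and 1 of 37 members are close to the number that these shares give. These shares are 309 higher and 797 lower genes, and they were 423 and 510 after the trend of the ratio on expression level was subtracted. The median log2 ratio was 0.00 over the 37 members and -0.05 over all genes. A log2 ratio between -0.32 and 0.32 was seen in 28 of the 37 members and in 74.4% of all genes. *VLDLR*, the very low density lipoprotein receptor, had 0.0233 and 0.0320 FPKM, which is about 2.04 and 3.14 reads, and was not compared. *SHMT2*, the mitochondrial serine hydroxymethyltransferase, and *PDIA6*, a protein disulfide isomerase, are listed at 0 in both libraries with the status of a failed estimate, which 269 genes have. Each shares its locus with 1 gene on the opposite strand that failed too (*NDUFA4L2* and *ATP6V1C2*), so these zeros are not a measurement of silence.

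**Figure D2:**
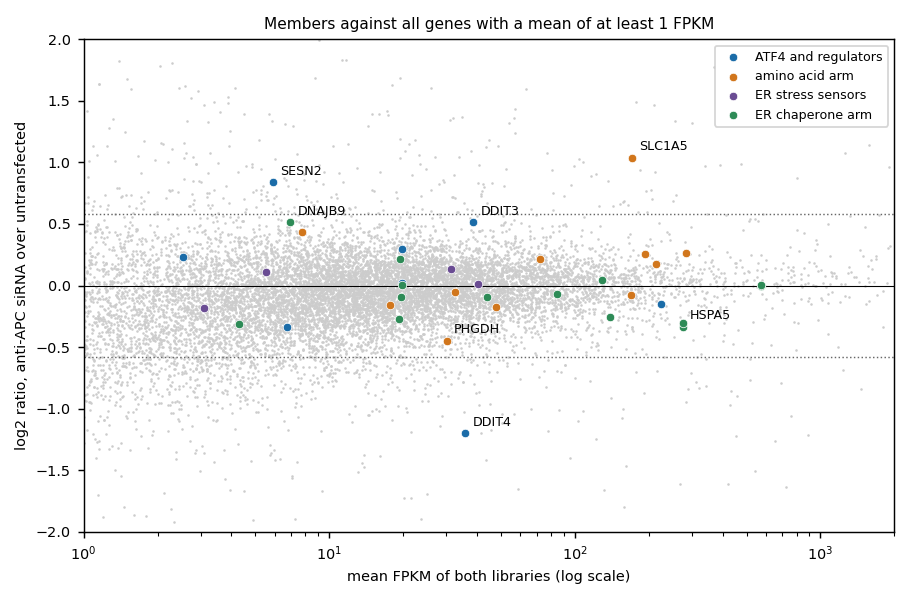
Log2 ratio of FPKM, anti-*APC* siRNA over untransfected, against mean FPKM of both libraries (log axis) for 37 members in colour and all genes with a mean of at least 1 FPKM in grey, with 68 genes outside the drawn range. Dotted lines mark 1.5-fold, and *SLC1A5*, *SESN2* and *DDIT4* are the members outside them.

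*ATF4* was abundant in both libraries, at 213 FPKM under anti-*APC* siRNA against 236 FPKM in the control. This is a log2 ratio of -0.15 (interval -0.20 to -0.10), and 20.0% of 666 genes of like level were at least as far below 0. The 7 other measured genes of its group ran from -1.20 to 0.84, with 5 above 0 and a median of 0.23, where 41.4% of all genes were above 0. That median is the ratio of *CHAC1*, which had only about 78.2 and 74.7 reads. With *ATF4* the median of the group was 0.13, and it was 0.02 among genes with a mean of at least 5 FPKM.

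*DDIT4*, which encodes the mTORC1 inhibitor REDD1, had 21.7 FPKM under anti-*APC* siRNA against 49.9 FPKM in the control. It was the lowest ratio of all members measured, at 0.436 of the control and a log2 ratio of -1.20 (interval -1.31 to -1.09). Among 3616 genes of like level, 0.166% were at least as far below 0. It lies on chromosome 10 of GRCh37 from 74033678 to 74035794 and is alone at its locus in the table.

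*SESN2*, which encodes sestrin 2, a leucine sensor that also restrains mTORC1, stood on the other side of the control. It had 7.55 FPKM under anti-*APC* siRNA against 4.21 FPKM in the control, a ratio of 1.79 and a log2 ratio of 0.84 (interval 0.66 to 1.02). Among 3835 genes of like level, 1.23% were at least as far above 0. It lies on chromosome 1 of GRCh37 from 28586029 to 28609002. Adding 1 FPKM to both levels gave a log2 ratio of 0.71. *DDIT4* and *SESN2* are both known stress-induced brakes on mTORC1, and in these libraries they stood on opposite sides.

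*DDIT3*, which encodes CHOP, a transcription factor tied to cell death under lasting ER stress, had 45.3 FPKM under anti-*APC* siRNA against 31.7 FPKM in the control. Its log2 ratio was 0.51 (interval 0.38 to 0.65), a 1.43-fold difference, and 1.98% of 3493 genes of like level were at least as far above 0. Cuffdiff placed it at 1 locus with *MARS*, which encodes a methionyl-tRNA synthetase and had 83.7 and 83.5 FPKM. The *DDIT3* level was thus 0.541 of the *MARS* level with anti-*APC* siRNA and 0.380 without.

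The other genes grouped with *ATF4* differed less. *PPP1R15A*, which encodes GADD34, the phosphatase subunit that reverses eIF2α phosphorylation, had 21.8 and 17.7 FPKM with and without anti-*APC* siRNA, a log2 ratio of 0.30. *CEBPB*, a partner of ATF4 on DNA, had 5.95 and 7.52 FPKM, a log2 ratio of -0.34. *TRIB3*, a pseudokinase that feeds back on ATF4, had 19.9 and 19.6 FPKM, a log2 ratio of 0.02. *PPP1R15A* and *CEBPB* thus stood on different sides of the control, and the interval of *TRIB3* (-0.14 to 0.18) took in 0. *CHAC1*, which degrades glutathione and is one of the steepest ATF4 targets under stress, was low at 2.76 and 2.34 FPKM. With about 78.2 and 74.7 reads, its interval of -0.22 to 0.69 reaches from below the control to more than 1.5-fold above it.

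**Figure D3:**
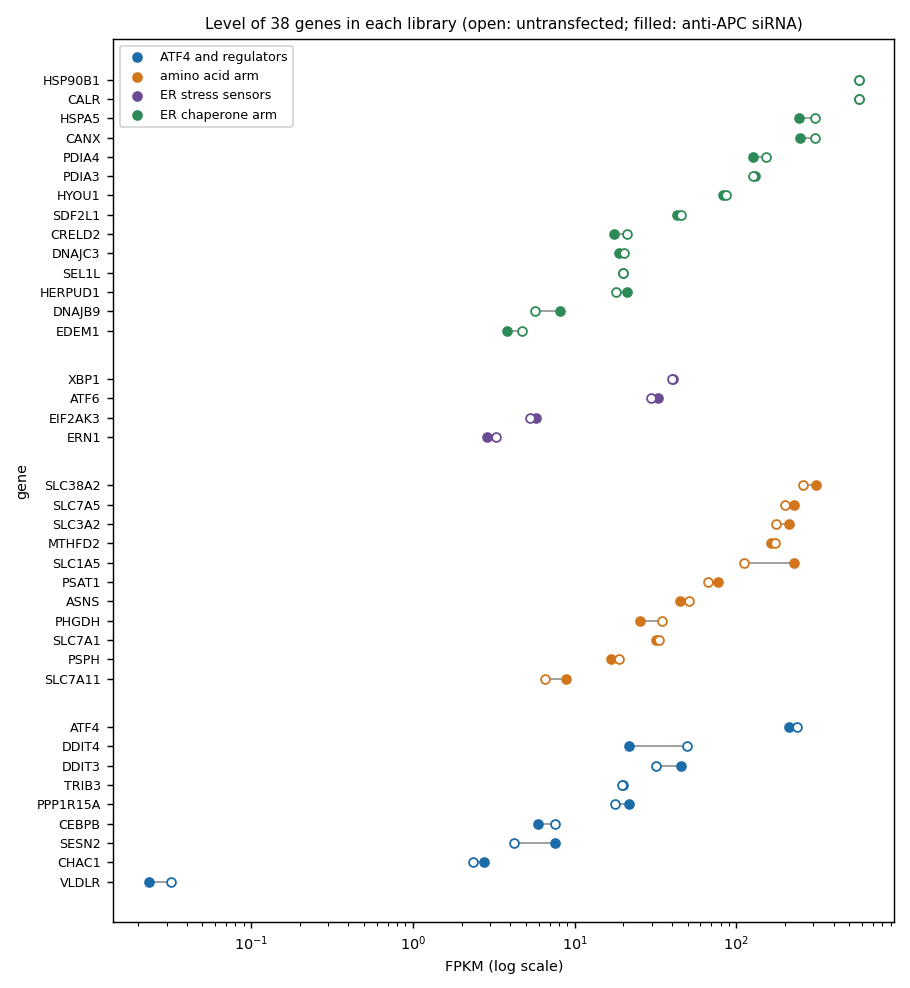
FPKM (log axis) of the 38 members with a value above 0, with open circles for the untransfected library and filled circles for the anti-*APC* library, grouped by role and ordered by level. Most pairs of circles lie close together, and the widest gaps are those of *SLC1A5*, *DDIT4* and *SESN2*.

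In the amino acid arm, *SLC1A5* stood apart from the rest. It encodes ASCT2, a transporter that brings glutamine and other neutral amino acids into the cell. It had 229 FPKM under anti-*APC* siRNA against 111 FPKM in the control, a ratio of 2.05 and a log2 ratio of 1.04 (interval 0.99 to 1.09). Among 919 genes of like level, 0.435% were at least as far above 0. It lies on chromosome 19 of GRCh37 from 47278140 to 47291851.

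The other transporters differed from the control by less than 1.5-fold. *SLC7A11*, the cystine and glutamate exchanger xCT, had 8.88 and 6.57 FPKM with and without anti-*APC* siRNA, a log2 ratio of 0.44 (interval 0.34 to 0.53). *SLC38A2*, which encodes SNAT2, a transporter induced by amino acid shortage, had 310 and 257 FPKM, a log2 ratio of 0.27. *SLC3A2*, the heavy chain 4F2hc that carries xCT and LAT1 to the membrane, had 211 and 177 FPKM, a log2 ratio of 0.26. All 3 were higher, by 1.20-fold to 1.35-fold. *SLC7A5*, which encodes LAT1, the exchanger that imports leucine, had 227 and 201 FPKM, a log2 ratio of 0.17. The mRNAs of LAT1 and its heavy chain stayed near equal levels, with *SLC7A5* at 1.07 times *SLC3A2* with anti-*APC* siRNA and 1.14 times without. The copies *SLC7A5P1* and *SLC7A5P2* had between 4.56 and 5.48 FPKM, and reads shared with them are an uncertainty of the *SLC7A5* value. *SLC7A1*, the cationic amino acid transporter CAT1, had 31.8 and 33.1 FPKM, a log2 ratio of -0.06 with an interval of -0.13 to 0.01. In all, 5 of the 6 transporters were above the control, against 41.4% of all genes, a share that is not matched to level. The median log2 ratio of genes with a mean from 100 to 1000 FPKM was 0.01. Summed, the transporters had 1017 FPKM under anti-*APC* siRNA against 786 FPKM in the control, of which *SLC1A5* alone had 229 and 111.5 FPKM.

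The enzymes of the amino acid arm were mostly below the control. *PHGDH*, the first enzyme of serine synthesis from glycolysis, had 25.5 and 34.8 FPKM with and without anti-*APC* siRNA. Its log2 ratio was -0.45 (interval -0.56 to -0.33), and 5.43% of 3939 genes of like level were at least as far below 0. *PSAT1*, the next enzyme of the same pathway, had 77.6 and 66.9 FPKM, a log2 ratio of 0.21. Neighbouring steps of serine synthesis thus lay on opposite sides of the control. *PSPH*, the last step, had 16.7 and 18.7 FPKM, a log2 ratio of -0.16 (interval -0.38 to 0.06). *ASNS*, asparagine synthetase, one of the classical ATF4 targets, had 44.9 and 50.8 FPKM, a log2 ratio of -0.18. *MTHFD2*, a mitochondrial enzyme of the folate cycle, had 165 and 175 FPKM, a log2 ratio of -0.08. Of the 5 enzymes measured, only *PSAT1* was above the control, where 41.4% of all genes were. That share is not matched to level, and genes with a mean from 30 to 100 FPKM had a median log2 ratio of -0.0047. The summed level of the enzymes was 330 FPKM under anti-*APC* siRNA against 346 FPKM in the control.

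**Figure D4:**
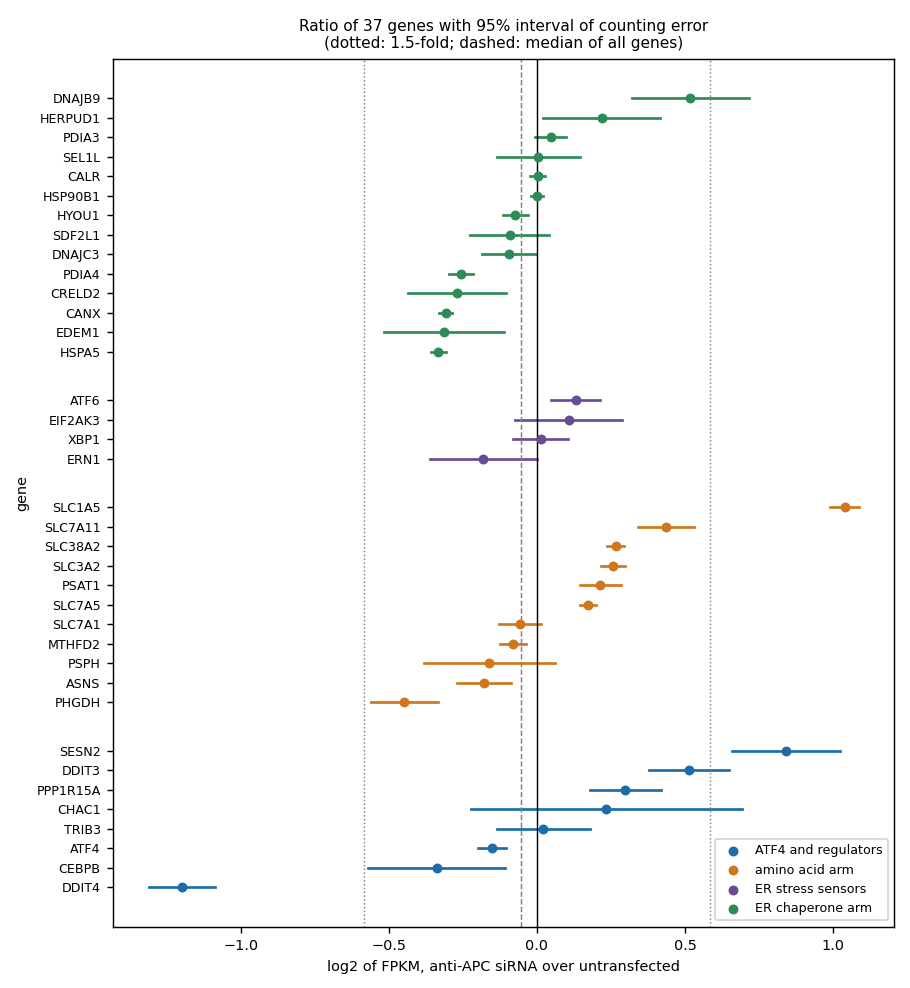
Log2 ratio of FPKM for 37 members, anti-*APC* siRNA over untransfected, as points with lines for the 95% interval of counting error. Dotted lines mark 1.5-fold and the dashed line the median of all genes (-0.05). The ER chaperone genes run from -0.33 to 0.52 and the amino acid genes from -0.45 to 1.04.

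The 3 sensors of ER stress and *XBP1* differed little from the control. *XBP1*, the factor that IRE1 activates by splicing its mRNA, had 40.6 FPKM under anti-*APC* siRNA against 40.3 FPKM in the control, a log2 ratio of 0.01 (interval -0.08 to 0.11). *ATF6*, the sensor that is cut to release a transcription factor, had 32.6 and 29.8 FPKM, a log2 ratio of 0.13. *EIF2AK3*, which encodes PERK, had 5.74 and 5.33 FPKM, a log2 ratio of 0.11 (interval -0.07 to 0.29). All 3 had a log2 ratio of at most 0.13. *ERN1*, which encodes IRE1, had 2.89 and 3.27 FPKM, a log2 ratio of -0.18, close to the median of -0.17 over the 2862 genes with a mean from 1 to 5 FPKM.

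In the ER chaperone arm 12 of the 14 genes measured had a log2 ratio between -0.32 and 0.32, and no gene reached 1.5-fold in either direction. Over all genes 74.4% lay in that range, and 2.56% were at least 1.5-fold higher and 6.61% lower. The median log2 ratio of the arm was -0.08, with 6 genes above 0 and 8 below, where 41.4% of all genes were above 0. That share is not matched to level, and the arm had a median of 66.2 FPKM in the control. Over all genes the median log2 ratio was -0.17 at a mean of 1 to 5 FPKM. It was -0.0047 from 30 to 100 FPKM and 0.01 from 100 to 1000 FPKM. Among 249 genes of like level to *HSP90B1*, 57% had a ratio at least as high as its own. The most abundant pair, *HSP90B1* and *CALR*, had almost the same level in both libraries. *HSP90B1*, which encodes GRP94, the ER form of HSP90, had 573 FPKM in both libraries, with an interval of -0.02 to 0.02 on the log2 scale. *CALR*, which encodes the lectin chaperone calreticulin, had 571 FPKM under anti-*APC* siRNA against 570.5 FPKM in the control, with an interval of -0.02 to 0.03. *HSP90B1* shares its locus and strand with *MIR3652*, listed at 2106 FPKM under anti-*APC* siRNA against 2429 FPKM in the control (log2 ratio -0.21). Its copy *HSP90B3P* had 103 FPKM in each library. Some reads may thus have been divided, which the counting interval does not cover.

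*HSPA5* and *CANX*, next in level, were lower than the control. *HSPA5* encodes BiP, the chaperone that holds the sensors inactive and is the usual marker of the unfolded protein response. It had 244 FPKM under anti-*APC* siRNA against 307 FPKM in the control, a log2 ratio of -0.33 (interval -0.36 to -0.31). Among 516 genes of like level 10.3% were at least as far below 0, so a gap of this size is larger than counting error but not rare between these libraries. *CANX*, which encodes calnexin, the membrane-bound relative of calreticulin, had 246 and 305 FPKM, a log2 ratio of -0.31. The *CALR* mRNA level was thus 2.32 times that of *CANX* with anti-*APC* siRNA and 1.87 times without.

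The protein disulfide isomerases and cochaperones were split. *PDIA4*, also known as ERp72, had 127 and 152 FPKM with and without anti-*APC* siRNA, a log2 ratio of -0.26. *PDIA3*, also known as ERp57, which works with calnexin and calreticulin, had 131 and 127 FPKM, a log2 ratio of 0.05 at a locus that Cuffdiff gave 7 genes. *HYOU1*, the large ER chaperone that acts as an exchange factor for BiP, had 82.7 and 87.0 FPKM, a log2 ratio of -0.07. Of these 3, *PDIA4* was the lowest against its control. *SDF2L1*, part of a chaperone complex with BiP, had 42.7 and 45.5 FPKM, a log2 ratio of -0.09. *CRELD2*, a secreted ER stress-inducible protein, had 17.4 and 21.0 FPKM, a log2 ratio of -0.27. *DNAJC3*, which encodes the BiP cochaperone p58IPK, had 18.9 and 20.2 FPKM, a log2 ratio of -0.09. These 3 were below the control, but the interval of *SDF2L1* (-0.22 to 0.04) took in 0 and that of *DNAJC3* (-0.19 to -0.0025) nearly did.

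*DNAJB9* had the highest ratio of the ER chaperone arm. It encodes ERdj4, a BiP cochaperone that is induced through XBP1 and that helps repress IRE1. It had 8.17 FPKM under anti-*APC* siRNA against 5.71 FPKM in the control, a 1.43-fold difference and a log2 ratio of 0.52 (interval 0.32 to 0.72). Among 4082 genes of like level 2.74% were at least as far above 0. When the trend of the ratio on expression level was subtracted it passed 1.5-fold, beside *SLC1A5* and *SESN2*.

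The genes for degradation of ER proteins showed no common direction. *HERPUD1*, which helps assemble the degradation complex, had 21.0 and 18.0 FPKM with and without anti-*APC* siRNA, a log2 ratio of 0.22 (interval 0.02 to 0.42). *SEL1L*, the partner of the ubiquitin ligase HRD1, had 19.9 and 19.8 FPKM, a log2 ratio of 0.00 (interval -0.14 to 0.15). *EDEM1*, which hands misfolded glycoproteins to the degradation machinery, had 3.83 and 4.76 FPKM, a log2 ratio of -0.31. At this low level 27.5% of 3323 genes were at least as far below 0.

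Set side by side, the amino acid arm had a median log2 ratio of 0.17 over 11 genes, with 6 above 0 and 5 below. Over all genes 41.4% were above 0, a share that is not matched to the level of either arm. The ER chaperone arm had a median of -0.08 over 14 genes, and the median of all genes was -0.05. The summed level was 1347 FPKM under anti-*APC* siRNA against 1132 FPKM in the control in the amino acid arm, and 2107 and 2256 FPKM in the ER chaperone arm. The sum of the amino acid arm is not a rise of all its genes: *SLC1A5* alone had 229 and 111.5 FPKM, and the enzymes summed to 330 and 346 FPKM. Genes are not replicates, so the difference between the arms was not tested. Without *SLC1A5* the median of the amino acid arm was 0.06, and this setting was chosen after the data were seen. The quartiles were -0.12 and 0.26 in the amino acid arm, -0.27 and 0.00 in the ER chaperone arm, and -0.24 and 0.11 over all genes. Within the amino acid arm the median was 0.26 for the transporters and -0.16 for the enzymes, the latter below the median of the ER chaperone arm. The -0.16 is the ratio of *PSPH*, whose interval of -0.38 to 0.06 takes in 0 and the median of the ER chaperone arm. The 8 measured ER chaperone genes with an ER stress element of either kind had a median of -0.08, and the 5 without had -0.09. The 5 measured genes of both ATF4 groups with the composite core had a median of 0.23, with a range from -0.18 to 1.04. The 12 without had 0.10, with a range from -1.20 to 0.84. The 0.23 is the ratio of *CHAC1*, with an interval of -0.22 to 0.69, so the gap between these medians rests on an imprecise value.

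Other genes of the pathways, taken from lists of known members, were counted in the same way. The share over all genes to set beside each count is 41.4% above the control, and it is not matched to level. Of 25 other ATF4 targets, 17 passed the minimum of 1 FPKM, of which 4 were above the control and 13 below, with a median of -0.13. *ATF3*, a stress-induced transcription factor, was the only one past 1.5-fold, at 31.1 FPKM under anti-*APC* siRNA against 15.7 FPKM in the control (log2 ratio 0.99). A further 5 genes of this list lay at -0.54 to -0.49, short of 1.5-fold lower: *VEGFA*, *PCK2*, *XPOT*, *GDF15* and *SLC43A1*. These 5 were picked out with their values known. The median of these targets was below 0, and that of the amino acid arm, at 0.17, above it. The kinases that can phosphorylate eIF2α were near the control. *EIF2AK2*, which encodes the double-stranded RNA sensor PKR, had 30.4 and 27.0 FPKM, a log2 ratio of 0.17 and the highest of its list. *EIF2AK1* and *EIF2AK4* had log2 ratios of 0.03 and -0.06. Over the 6 genes for these kinases, eIF2 and its regulators the median was 0.07.

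Of 27 other genes for ER folding and degradation, 26 passed the minimum, with 8 above the control, 18 below and a median of -0.12. *PPIB*, an ER proline isomerase, had 226 and 370 FPKM (log2 ratio -0.71), and *FKBP14*, another one, had 10.3 and 5.51 FPKM (log2 ratio 0.91). Of 14 genes for ER translocation and secretion, 4 were above the control and 10 below, with a median of -0.05. The only one past 1.5-fold was *KDELR3*, a receptor that returns ER proteins from the Golgi, at 13.7 and 28.0 FPKM (log2 ratio -1.03). The 5 measured genes among 6 other ER membrane factors and their proteases were all below the control, with a median of -0.14.

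**Figure D5:**
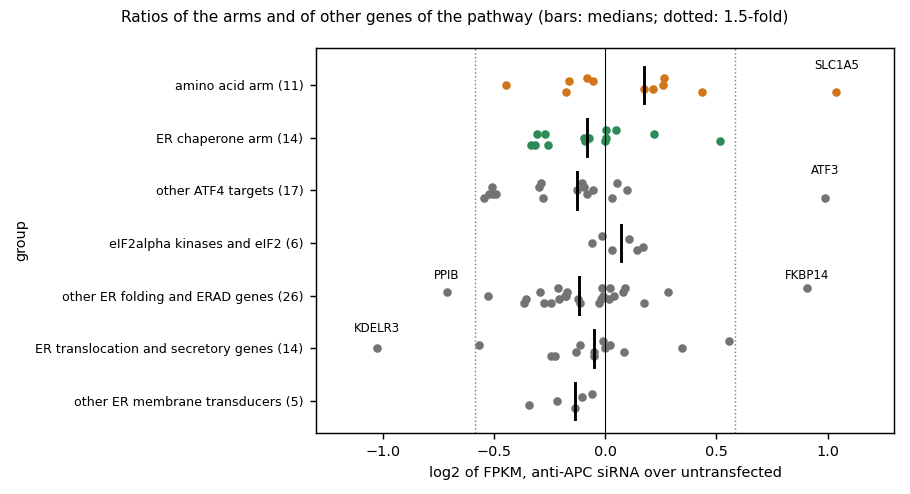
Log2 ratio of FPKM, anti-*APC* siRNA over untransfected, for genes of the amino acid and ER chaperone arms and of 5 further lists of the pathways, with the number of genes in brackets, bars for medians and dotted lines at 1.5-fold. *SLC1A5*, *ATF3*, *FKBP14*, *PPIB* and *KDELR3* are the genes past 1.5-fold, and the medians run from -0.14 to 0.17.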

How the data were processed

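Single-read TruSeq libraries were prepared from HCT-116 cells. The authors deposited FPKM per gene, obtained with Cufflinks and Cuffdiff, for cells with anti-*APC* siRNA and for untransfected cells. The submitters' processing notes name hg19, and the aligner, versions and annotation are not given in the sources used here. The kit does not mark strand. The table also holds the authors' own fold changes, test statistics, p-values and q-values for this comparison, which were not used. No read counts were given.

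Members and lists were chosen with earlier results of these data known. All 40 members were named, with other genes of the lists named when past 1.5-fold and *APC*, *AXIN2* and *CTNNB1* as checks. *EIF2AK1*, *EIF2AK2*, *EIF2AK4*, the markers and genes sharing a locus or sequence with a member were named after their values were seen. Log2 ratios had no pseudocount, and counts used a mean of at least 1 FPKM over both libraries and a value above 0 in each, which left out 134 genes at 0 in 1 library. Depth was read from genes above 0 in 1 library alone (652 and 630 genes with a GENCODE 44 transcript length), at the modal bin of the reads that 1 read per gene implies. In 400 genes the FPKM of 1 read in each library differed by 0.13 on the log2 scale. Read numbers depend on that annotation. The 2 libraries were compared without a test. Alternatives were other folds, filters and a pseudocount, centring, a lowess trend on level and genes alone at their locus. The steps were tested on simulated data. The tools were pandas 2.3.3, numpy 2.4.6, statsmodels 0.14.6 and matplotlib 3.10.9 under Python 3.11.15.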

Additional observations from a re-analysis of the deposited data

How the results depend on the processing

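With a threshold of 0.32 on the log2 scale, 5 members were higher and 4 lower (7.17% and 18.4% of all genes), and with 2-fold 1 was higher (*SLC1A5*) and 1 lower (*DDIT4*), against 0.953% and 1.37%. With a pseudocount of 1 FPKM, with no filter, with a mean of at least 5 FPKM, after centring and among genes alone at their locus, the members past 1.5-fold were again *SLC1A5*, *SESN2* and *DDIT4*, and after subtraction of the trend on level *DNAJB9* joined them. The median of ATF4 and its regulators was 0.0218 with a mean of at least 5 FPKM and also among genes alone at their locus. The median of the amino acid arm was 0.23 after centring, 0.0582 among genes alone at their locus and also without *SLC1A5*, and that of the ER chaperone arm was -0.0294 after centring. Signs of the 37 members held under the pseudocount, centring and the trend, except that *CALR* and *HSP90B1* changed sign under the trend. No paired analysis was possible because each condition has 1 library. Depth limits *CHAC1* and *VLDLR* most, and no value here has a replicate error.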
